A study of Drosophila melanogaster with 2 samples.

Results

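Promoters that 2 genes share back to back are examined here: head-to-head pairs of protein-coding genes with a summit of the chromatin protein MESR4 within reach of both start sites. A pair was a gene on the minus strand and a different gene on the plus strand whose transcription start sites (TSSs, the annotated 5' ends of the genes in Ensembl release 115) lay 1 to 500 bp apart, with the minus-strand gene to the left. Of 1772 such pairs, 1193 had a MESR4 summit within 500 bp of both TSSs, here called a shared summit, which is 67.3% (95% interval 65.1 to 69.5). The other 579 pairs had none. The pairs were chosen by the measured summits themselves, so presence, side, number and signal of the summits are descriptions and carry no test. The 1193 pairs took in 2285 genes and 1115 distinct pairs of TSS positions, because some genes share a 5' end or belong to several pairs.

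The summits came from chromatin immunoprecipitation followed by sequencing (ChIP-seq) on whole fly embryos of mixed sex collected 0 to 24 h after laying. The embryos were from a transgenic Drosophila melanogaster line that stably expresses MESR4 with green fluorescent protein at its C terminus, and the 2 samples were biological replicates 1 and 3 of this 1 group. The labels describe both samples in free text as input controls, but their antibody entry is MESR4, and the submitters' file listings show that peaks were called in them against another alignment used as control. They were therefore taken as MESR4 samples. Whole embryos mix all cell types, so a summit in few cells and a weaker one in many cannot be told apart.

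Head-to-head pairs are common in the compact fly genome. Transcription starts outward from both edges of a stretch without stable nucleosomes, and many such genes are active in every cell. Proteins known at fly promoters of this kind include DREF, which binds the DNA replication-related element (DRE), M1BP, which binds the core promoter sequence Motif 1, and the insulator protein BEAF-32, which binds clusters of CGATA. MESR4 carries zinc fingers and a PHD finger, a fold that in many proteins reads histone tails, and was first found in a misexpression screen of Ras signalling in the fly eye.

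The DNA between the TSSs shows what such a promoter looks like. Every sequence is the plus strand of the release 6 genome (dm6) from RefSeq, from the base after the minus-strand TSS to the base before the plus-strand TSS, so the minus-strand gene reads leftward out of it and the plus-strand gene rightward. Capitals mark DRE (TATCGATA) or the Motif 1 core (GGTCACACT). The first set holds the intervals of 40 to 300 bp with the highest MESR4 signals that contain either motif and overlap no other annotated gene: RpS25/CG4820 at chr3R:11216288-11216534, Rop/Ras64B at chr3L:4138997-4139075, Epp/Rab7 at chr3R:23992917-23993007, CG13690/RpLP1 at chr2L:419653-419951, eIF3a/CG1074 at chr3R:4433896-4433964 and Top3beta/wuho at chrX:6287991-6288099. The chromosome arm on which no sequence is shown anywhere in these results was left out of this and the later choices of sequences.
RpS25/CG4820: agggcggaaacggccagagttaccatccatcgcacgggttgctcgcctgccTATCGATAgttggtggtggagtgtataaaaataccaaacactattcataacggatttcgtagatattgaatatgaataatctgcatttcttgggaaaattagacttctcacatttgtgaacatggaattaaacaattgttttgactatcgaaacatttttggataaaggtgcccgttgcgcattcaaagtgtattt
Rop/Ras64B: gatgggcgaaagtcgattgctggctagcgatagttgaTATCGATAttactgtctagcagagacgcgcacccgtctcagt
Epp/Rab7: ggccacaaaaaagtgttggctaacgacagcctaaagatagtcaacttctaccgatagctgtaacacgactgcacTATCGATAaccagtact
CG13690/RpLP1: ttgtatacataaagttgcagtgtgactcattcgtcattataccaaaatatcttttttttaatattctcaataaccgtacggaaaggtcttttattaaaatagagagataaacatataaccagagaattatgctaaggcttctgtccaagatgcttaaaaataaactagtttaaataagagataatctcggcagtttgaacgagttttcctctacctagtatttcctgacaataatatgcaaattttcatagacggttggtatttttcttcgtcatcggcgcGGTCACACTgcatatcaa
eIF3a/CG1074: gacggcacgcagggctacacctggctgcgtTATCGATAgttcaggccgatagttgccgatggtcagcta
Top3beta/wuho: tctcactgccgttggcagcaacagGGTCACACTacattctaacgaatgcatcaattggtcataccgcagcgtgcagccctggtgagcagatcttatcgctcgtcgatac

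A second set holds neither motif between the TSSs. Nelf-E/RpL14 at chr3L:8600880-8601005 and Surf6/RhoGAP92B at chr3R:19904869-19905163 are the intervals of this length with the highest signals that hold none of the 8 sequences searched, namely DRE, the Motif 1 core and 6 shorter ones. The shorter ones were the E-box CAGCTG, the E-box CACGTG, the half-DRE CGATA, the TATA box TATAAA, the GAGA element GAGAGA and the initiator TCAGT. The window used for motif shares further on reaches beyond these intervals, and in it Surf6/RhoGAP92B holds the Motif 1 core, an E-box and the initiator, and Nelf-E/RpL14 the half-DRE.
Nelf-E/RpL14: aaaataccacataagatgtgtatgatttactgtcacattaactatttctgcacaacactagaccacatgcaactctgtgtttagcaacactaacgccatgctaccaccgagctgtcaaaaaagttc
Surf6/RhoGAP92B: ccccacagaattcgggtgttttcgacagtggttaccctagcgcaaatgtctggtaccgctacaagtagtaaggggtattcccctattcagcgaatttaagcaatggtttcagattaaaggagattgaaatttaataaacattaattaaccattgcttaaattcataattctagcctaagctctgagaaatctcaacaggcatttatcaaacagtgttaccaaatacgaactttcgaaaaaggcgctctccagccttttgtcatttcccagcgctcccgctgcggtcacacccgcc

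For contrast, 2 intervals belong to pairs without a shared summit. TTLL6B/TfIIA-L lies at chr3R:27251008-27251111 and pairs a tubulin ligase-like gene with a general transcription factor gene, and Ugt304A1/Ugt303A1 at chr3R:11175409-11175528 is a pair of detoxification genes. Neither had a thresholded summit within 500 bp of either TSS.
TTLL6B/TfIIA-L: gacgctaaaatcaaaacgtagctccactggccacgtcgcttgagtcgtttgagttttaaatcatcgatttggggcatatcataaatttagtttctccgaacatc
Ugt304A1/Ugt303A1: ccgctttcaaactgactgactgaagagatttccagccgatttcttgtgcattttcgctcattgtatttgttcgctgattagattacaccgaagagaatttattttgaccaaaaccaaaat

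Genes in head-to-head pairs held a MESR4 summit more often than other genes. Of the 3397 genes in such a pair, 80.8% (79.4 to 82.1) had a summit of the thresholded list at most 500 bp from their annotated start. The same held for 40.9% of all 13834 protein-coding genes and for 27.9% of the 10437 genes in no such pair. A summit near 2 starts counts for both of these genes. When each summit counted for the nearest start alone, the shares were 55.7% (54.0 to 57.4) in pairs and 27.1% (26.2 to 28.0) outside them. Among genes in no pair, those with the 3' end of a same-strand gene up to 500 bp upstream had a summit in 41.4% (39.6 to 43.3), and those without one in 23.2% (22.2 to 24.1). The shared summits were 1456 distinct positions, 22.7% of the 6415 in the thresholded list. These intervals, like all below, are exact binomial (Clopper-Pearson) for shares and exact order-statistic for medians. They take each pair or gene as 1 independent case and leave out how far the replicates differ.

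Most pairs spaced up to 300 bp carried a shared summit, and the share dropped at wider spacing. The median spacing was 220 bp (203 to 228) in pairs with a shared summit and 373 bp (365 to 383) in pairs without. A shared summit was present in 328 of 362 pairs spaced 1 to 100 bp (90.6%), in 78.5% above 100 and up to 200 bp, in 80.4% up to 300 bp, in 56.4% up to 400 bp and in 23 of the 242 pairs spaced over 400 bp (9.50%). The stretch within 500 bp of both TSSs shrinks by 1 base with each base of spacing, so the rule itself lowers the share at wide spacing. A summit within 500 bp of either TSS showed no such drop, at 91.2%, 79.6%, 83.5%, 82.8% and 87.2% in the same 5 ranges. That stretch grows by 1 base with each base of spacing, so this share is not neutral to spacing either. In all, 309 pairs had a summit near 1 TSS only, 93.5% of them spaced over 300 bp, and 270 had none near either.

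**Figure D1:**
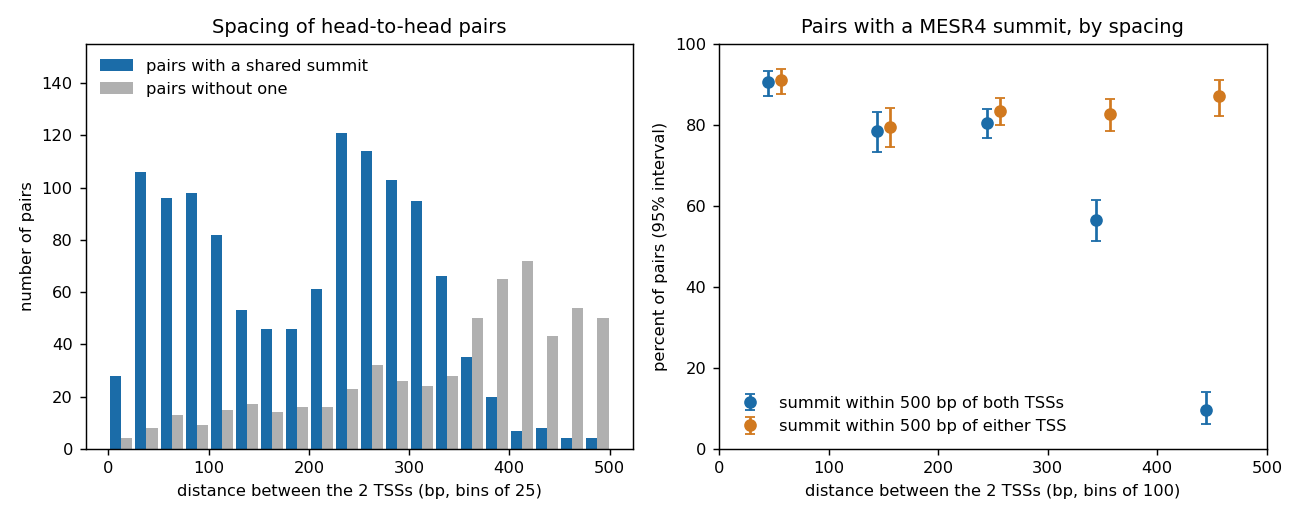
Left, number of head-to-head pairs with a shared MESR4 summit (blue) and without one (grey) by the distance between the TSSs in bp. Right, percent of pairs with a summit within 500 bp of both TSSs (blue) or of either TSS (orange) in bins of 100 bp, with 95% intervals; over 400 bp the first is 9.50% and the second 87.2%.

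The edges of the rule fell in a continuous range of values. FucTB/scat and CG32066/CG8003 had their best summit 500 bp from the farther TSS and were counted, and CG32483/RabX6 and CG11537/Alg2 had it 1 bp too far away and were not. The thresholded list ended at a signal of 176.097, and the next summit in the list of both replicates had 176.077. The lowest signal of a counted pair was 176.281. Of the 579 pairs without a shared summit, 134 had one in both of the longer replicate lists, which hold 30000 summits each. The summits of the replicates in such a pair need not lie at the same position.

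A single shared summit usually lay inside one of the genes rather than in the gap between them. Of the 852 pairs with 1 shared summit, 354 had it inside the minus-strand gene, 126 between the TSSs and 372 inside the plus-strand gene. That places 85.2% (82.6 to 87.5) past a TSS, in transcribed sequence, while the gap made up 25.8% of the stretch within 500 bp of both TSSs. The summit was a median 92 bp (89 to 101) downstream of the nearer TSS, with quartiles of 29.8 and 138 bp and a range of -183 to 379 bp, where negative means upstream. These values depend on the window: with 250 bp in place of 500 bp the median offset was 12.5 bp and 58.4% of single summits lay inside a gene. The summit was nearer to the minus-strand gene in 49.1% (45.7 to 52.5). The median was 90 bp in minus-strand genes and 94 bp in plus-strand genes, with overlapping intervals (76 to 103 and 89 to 105).

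Genes that stand alone had a like median, in a wider window. Protein-coding genes with no other protein-coding 5' end within 1000 bp had a summit in 23.6% of 8225. Where it was the only one, it lay a median 92 bp (86 to 96) downstream of the TSS and inside the gene in 84.6% (82.8 to 86.3). The median over the pairs pools different spacings: it was 51 bp in those spaced up to 100 bp, 89 bp up to 200 bp, 115 bp up to 300 bp, 107 bp up to 400 bp and 29 bp in the 23 spaced over 400 bp. The difference between pairs and lone genes was not tested. In pairs whose single summit lay inside a gene it was a median 109 bp from the near TSS and 355 bp from the far one.

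**Figure D2:**
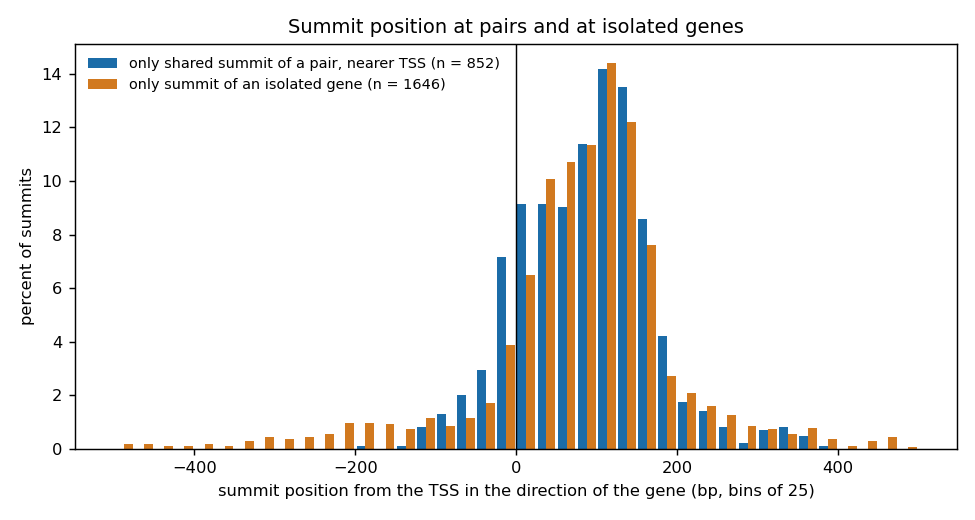
Position of the only shared summit of a head-to-head pair from the nearer TSS (blue, 852 pairs) and of the only summit of an isolated gene from its TSS (orange, 1646 genes), in bp along the gene, as percent of summits per 25 bp. Both peak past the TSS, each with a median of 92 bp, though shared summits had a narrower allowed range.

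A further 341 pairs had several shared summits (28.6%, 26.0 to 31.2), with 316 at 2, 24 at 3 and 1 at 4. That 1 is wmd/levy, in which levy encodes a cytochrome c oxidase subunit. Many of these did not mark both genes separately. In all 4 deposited lists no 2 summits were closer than 199 bp, and 210 of the 316 pairs with 2 summits (66.5%) had them at most 250 bp apart. In 209 of those 210 the summit with the higher coordinate was the weaker. In the whole thresholded list the same was true of 812 of 819 neighbours at most 250 bp apart (99.1%), but of 271 of 548 at 251 to 800 bp (49.5%). The part of this pattern in the counts of close summits was not tested. With it came an excess on the right: 54 close pairs of summits lay inside the plus-strand gene and 8 inside the minus-strand gene.

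Other pairs had a summit for each gene farther apart. In 122 pairs (10.2%, 8.56 to 12.1) a summit lay nearer to each TSS and the 2 were over 250 bp apart, and in 107 of these both were inside the genes. Those 107 pairs had a median spacing of 243 bp and a median distance between summits of 605 bp (587 to 612, quartiles 571 and 629.5). The summits sat a median 174 bp (163 to 185) inside the minus-strand gene and 168 bp (157 to 179) inside the plus-strand gene. Keeping only summits over 250 bp apart and inside both genes favours such deep positions. The minus-strand side was the stronger in 51.4% (41.5 to 61.2). The stronger summit had a median signal of 422 and the weaker 258, and in 48.6% of pairs they were within 1.5 times of each other.

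The stronger summit had a median 1.54 times the signal of the weaker over the 107 pairs, with quartiles of 1.25 and 1.96 and a highest ratio of 5.11. The named cases are the pairs with the highest weaker summit among those with a summit inside each gene, a choice that favours balanced pairs. Pgam5/Vps26, a mitochondrial phosphatase gene and a retromer gene spaced 288 bp apart, had signals of 606 inside Pgam5 and 599.6 inside Vps26, 628 bp apart. CG17271/RpS20 had 610 inside CG17271 and 909 inside RpS20, which encodes a protein of the small ribosomal subunit. CG12091/pns had 959 inside CG12091 and 562 inside pns. Mic26-27/CG5916 had 734 inside Mic26-27, a gene of the complex that shapes mitochondrial cristae, and 568 inside CG5916. The first of these was even and the others leaned to one gene by 1.29 to 1.71 times. ATPsynF/CG3548, spaced 126 bp, also had a summit in each gene, with 1528 and 641, but less than 250 bp apart, in the range where the right-hand summit was nearly always the weaker.

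**Figure D3:**
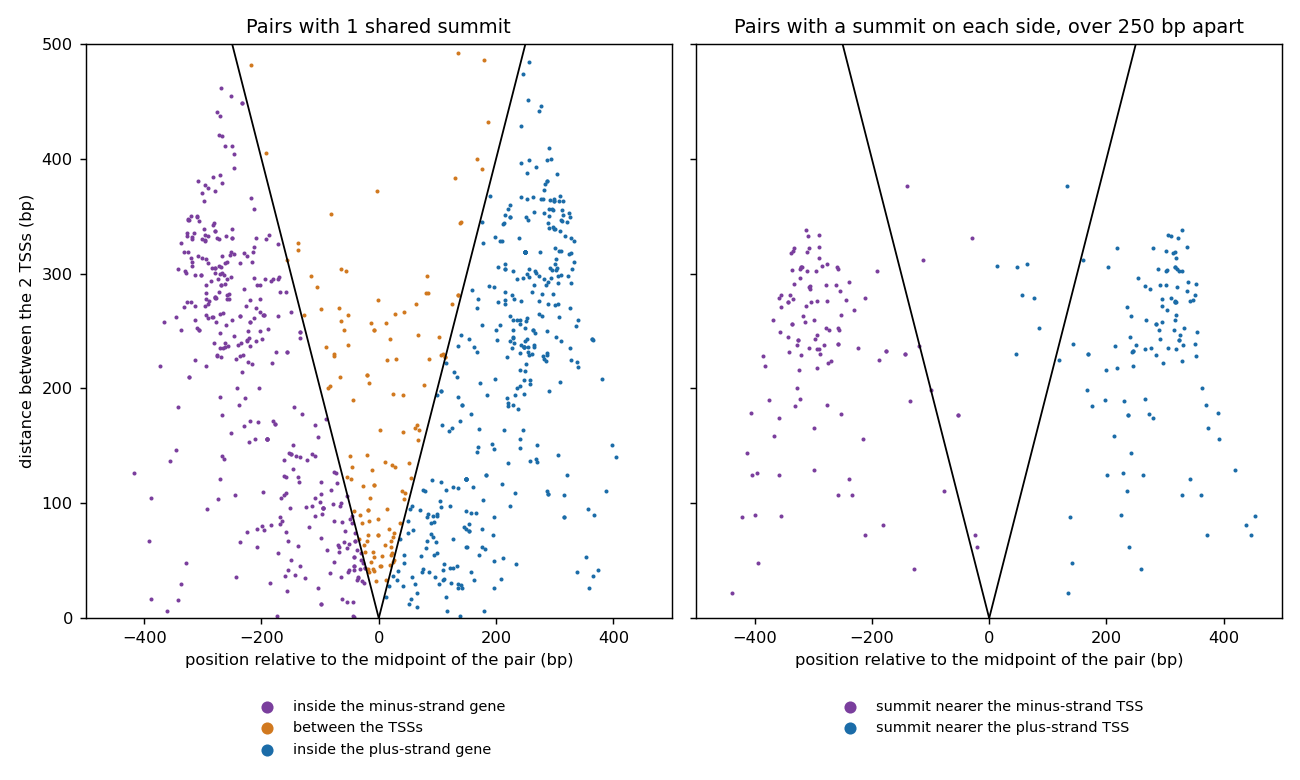
Position of shared summits from the midpoint of the pair (bp) against the distance between the TSSs (bp); black lines are the TSSs, minus-strand gene on the left. Left, the 852 pairs with 1 shared summit. Right, the 122 pairs with a summit nearer to each TSS and over 250 bp apart. In 107 of these both summits lie on the outer side of the lines, and in the others at least 1 lies between them.

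The signals of these pairs were close to those of other promoters. Signal is the authors' enrichment value per peak, on a scale set within a list. The strongest shared summit had a median of 476 (457 to 493) over the 1193 pairs, with a range of 176 to 2275, against 455 (442 to 466) at genes with a summit in no pair, 446 at isolated genes and 379 over all 6415 summits. Pairs with several shared summits had 552 (527 to 595) and pairs with one 447 (433 to 468). Single summits inside a gene had 461 (441 to 482) and single summits between the TSSs 392 (351 to 418). Of the 100 strongest summits of the list 24.0% were shared by a pair, and of the 1000 strongest 24.4%, near the 22.7% of the whole list. The region called around the strongest shared summit, a median 623 bp wide, covered both TSSs in 58.2% of pairs.

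The replicates placed the summit on the same gene in most pairs. A shared summit was present in the longer list of replicate 1 for 1168 of the 1193 pairs, in that of replicate 3 for 1182 and in both for 1159. The thresholded list was itself made from both replicates by comparing their peak ranks. Agreement between the replicates at these pairs is therefore in part set by the choice. In 85.8% of the 1159 (83.6 to 87.7) the strongest shared summit of both replicates was nearer to the same gene, and their summits were a median 40 bp (36 to 44) apart. The share was 76.5% (71.7 to 80.9) in pairs with several shared summits and 89.6% (87.3 to 91.6) in pairs with one. The median offset was 90 bp in replicate 1 and 86 bp in replicate 3. Between the chromosome arms the share of pairs with a shared summit ran from 61.7% on 3L (56.4 to 66.7) to 70.3% on 2R (65.1 to 75.2), with 66.9% on X and 1 of 5 pairs on chromosome 4.

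Of the 20 pairs with the highest signal, 9 held a gene for a cytosolic ribosomal protein, against 35 of all 1772 pairs. Non1/l(2)k10201 had the highest, 2275, with the summit 134 bp inside Non1, which encodes a nucleolar GTPase, and it ranked 7 of 30000 in replicate 1 and 10 in replicate 3. Nelf-E/RpL14, whose DNA is shown above, had 2046 with the summit 31 bp inside RpL14 and not inside Nelf-E, which encodes a subunit of the complex that pauses RNA polymerase II. It ranked 25 in replicate 1 and 12 in replicate 3. RpL13A had 2067 with the summit 49 bp inside it, and its 5' end faces both Dph4 and Spec2, which counts as 2 pairs.

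Most of the other leading pairs were high in both replicates, which a list made from both favours. Of the 20, tank/CG12194 (1656) was the one with no shared summit in the list of replicate 1. Its summit in the thresholded list lay 499 bp from the farther TSS, so one placed slightly deeper would not count as shared. In plu/RpS18 (1938) the shared summit was 88 bp inside RpS18, ranks 15 and 45 in replicates 1 and 3. Its partner plu, which controls replication in the early embryo, held no shared summit. In this pair 1 further summit lay near only 1 TSS and was not counted. In Ripalpha/RpL7, spaced 30 bp, the shared summit was 120 bp inside RpL7, with a signal of 1899.7 and ranks 37 and 17. In krz/mod (1562) it was 122 bp inside krz, the fly's non-visual arrestin, and away from mod, a nucleolar protein gene. In Rab6/Phae1 (1515) it was 116 bp inside Rab6, a Golgi GTPase gene, ranks 60 and 113, and in S6k/kri (1517) 83 bp inside S6k, a growth-control kinase gene. Of the 20 pairs with the highest signal, AIMP1/PAN2 (1641) and mRpS23/CenG1A (1536) had the summit between the TSSs, in the second 111 bp upstream of CenG1A, at a spacing of 492 bp.

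Pairs were then grouped by 19 lists of genes, and the summit's side was read from the nearer TSS. Only shared summits counted for the side. Summits within 500 bp of 1 TSS alone were left out, such as 1 in plu/RpS18 and 2 in RpL28/eIF1. Of the 35 pairs with a cytosolic ribosomal protein gene, 29 had a shared summit (82.9%, 66.4 to 93.4, beside 67.3% of all pairs), and all 35 had a summit near at least 1 TSS, beside 84.8% of all pairs. The 6 without a shared summit were spaced 382 to 491 bp. In 24 of the 29 the strongest shared summit was nearer to the ribosomal protein gene (82.8%, 64.2 to 94.2), and in the 28 found in both replicates it was so in 23 in replicate 1 and in 24 in replicate 3. Their median signal was 1351, against 476 over all 1193 pairs. In the 5 exceptions the summit was nearer to the partner, among them Axn in RpS28a/Axn (1009), 14-3-3zeta in RpLP0-like/14-3-3zeta (1177), CG4294 in CG4294/RpS16 (535) and Lsm10 in Lsm10/RpS15Ab (388). RpLP0-like is in the list by its symbol and encodes a relative of RpLP0 involved in ribosome assembly. RpS28a, RpS15Ab, RpL34a and RpL34b belong to duplicated genes, among which reads of like copies may be split.

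Other lists leaned to the list gene, to its partner or to neither. Of 27 pairs with an oxidative phosphorylation gene and a shared summit, it was nearer to that gene in 20 (74.1%, 53.7 to 88.9), as in COX7A/Arl2 with 1284 and IFT52/COX5B with 1252. Both COX genes encode subunits of cytochrome c oxidase. For the proteasome it was so in 11 of 15, for splicing factors in 13 of 19 and for chromatin genes in 11 of 16, among them Chro, Jarid2, HP1c and phol. The intervals of these lists all include 50% (44.9 to 92.2, 43.4 to 87.4 and 41.3 to 89.0). Splicing factor genes were the nearer in 11 of 19 pairs in each replicate. Mitochondrial ribosomal protein genes had it in 19 of 38 and nuclear pore genes in 7 of 14. In the opposite direction, DNA repair genes had it in 4 of 18 (22.2%, 6.41 to 47.6) and aminoacyl-tRNA synthetase genes in 3 of 14 (21.4%, 4.66 to 50.8). Cell cycle and replication genes had it in 8 of 25 (32.0%, 14.9 to 53.5). The intervals of the synthetase list and of the cell cycle and replication list include 50%. Synthetase genes were the nearer in 5 of 14 pairs in replicate 1 and in 3 of 14 in replicate 3.

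In the repair list the summit was at the partner in 14 of the 18 pairs. In mrva/mus312, mus312 encoding a scaffold of DNA-cutting enzymes, it was 124 bp inside mrva with a signal of 1104. In tefu/Hsc70-4, tefu being the fly ATM kinase gene, it was 29 bp inside the chaperone gene Hsc70-4, with 453. In RfC38/CG4751 of the replication list, RfC38 encoding a subunit of the clamp loader, it was 120 bp inside CG4751, with 1298. Pairs that a list did not hold are not covered by these counts, and the lists were written from symbols and textbook knowledge with earlier results of these data known. In replicate 1 the repair genes were the nearer in 4 of 17 pairs and in replicate 3 in 6 of 17, and the cell cycle and replication genes in 8 of 24 and 11 of 24. Chosen by symbol, the repair list also took in spn-E, a piRNA pathway helicase gene with the summit at its partner, and spn-F, an oogenesis gene with the summit nearer to itself.

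**Figure D4:**
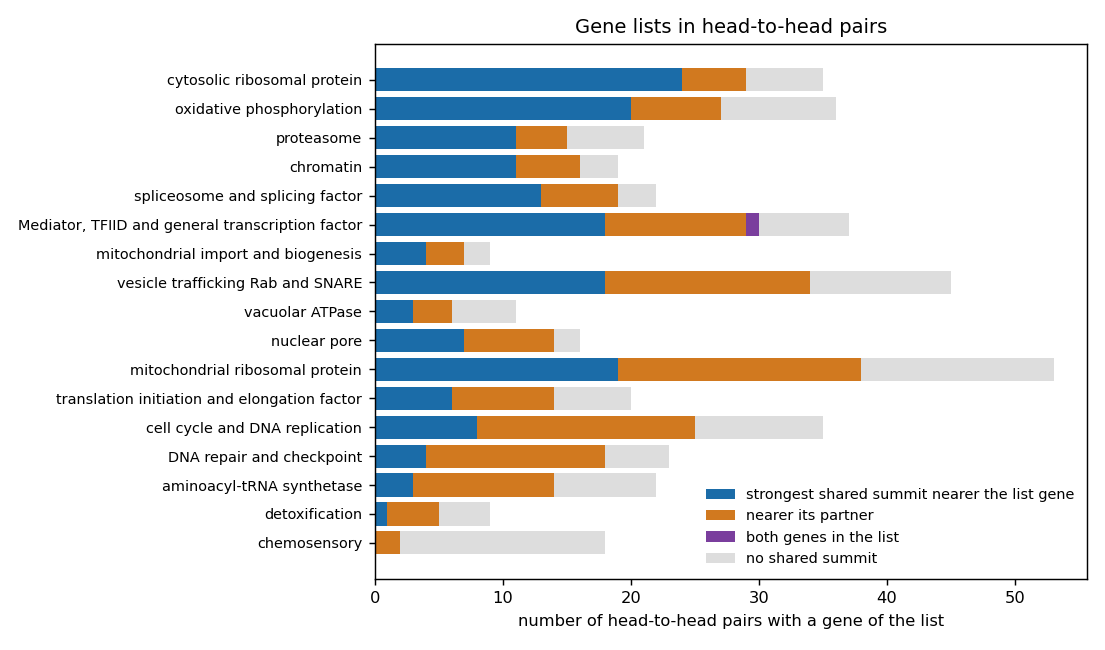
Number of head-to-head pairs with a gene of each list (lists with at least 9 pairs), split by whether the strongest shared summit was nearer to the list gene (blue) or to its partner (orange), whether both genes are in the list (purple), or no shared summit was present (grey). Ribosomal protein pairs had 24 blue and 5 orange, DNA repair pairs 4 and 14.

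Chemosensory genes were seldom in a pair with a shared summit. These genes, the receptors and odorant-binding proteins of smell and taste, formed 18 pairs, of which 2 had a shared summit (11.1%, 1.38 to 34.7, beside 67.3% of all pairs). A summit near at least 1 TSS was present in 7 of the 18, beside 84.8% of all pairs. In both pairs with a shared summit it was nearer to the partner: CG13585 in Ir60e/CG13585 (679), and in Gr63a/Lamtor4 (606) Lamtor4, a gene of the lysosomal Ragulator complex that faces a carbon dioxide receptor gene. The pairs of 2 chemosensory genes Obp50a/Obp50b, Gr58b/Gr58a and Gr59e/Gr59f had no summit near either TSS. Detoxification genes had a shared summit in 5 of 9 pairs (55.6%, 21.2 to 86.3), an interval that includes the 67.3%, with 1 nearer to the detoxification gene. Cuticle genes formed 2 pairs, too few for a share, and neither had one. Of 41 patterning genes only twi, the mesoderm determinant, was in a pair, CG32833/twi spaced 40 bp, with no summit. Pairs without a shared summit also held broadly used genes, such as mRpL27/CG15435 and Lfg/AspRS, which had a shared summit in both longer replicate lists at ranks from 5645 to 8993. The replicates did not place these at the same position. In the first pair the summit was 328 bp inside CG15435 in replicate 1 and 107 bp inside mRpL27 in replicate 3. In the second it was 422 and 86 bp inside Lfg.

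Sequence was not used to choose the pairs. Matches were counted on both strands within 200 bp of the midpoint between the TSSs, and within 200 bp of every protein-coding 5' end for comparison. DRE was found at 24.7% (22.3 to 27.3) of pairs with a shared summit, at 14.9% (12.1 to 18.0) of pairs without and at 9.20% of all 5' ends. The Motif 1 core was found at 17.9% (15.7 to 20.1), 6.56% (4.69 to 8.90) and 6.12%. The palindrome CACGTG, the E-box that Myc and Max bind, was found at 8.63% (7.10 to 10.4), 1.55% (0.713 to 2.93) and 5.58%, and the E-box CAGCTG at 35.2% (32.5 to 38.0), 17.3% (14.3 to 20.6) and 22.5%. In these 4 the intervals of pairs with and without a shared summit did not overlap. Of the 579 pairs without, 309 had a summit near 1 TSS only. In the 270 with none near either TSS, DRE was at 5.93% (3.42 to 9.45) and Motif 1 at 5.19% (2.86 to 8.55). CAGCTG was there at 19.3% (14.7 to 24.5) and CACGTG at 2.59% (1.05 to 5.27). Each match is a description of letters, and DRE also contains CGATA.

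The differences in these 4 were also present among closer pairs. In pairs spaced up to 300 bp, not matched for spacing below that limit, DRE was at 24.5% of the 954 with a shared summit. It was at 8.29% (4.81 to 13.1) of the 193 without. The Motif 1 core was at 18.7% against 5.18%, CAGCTG at 37.7% against 22.3% and CACGTG at 9.75% against 3.11% in the same sets. Genes with a summit in no pair had DRE at 18.0% (16.7 to 19.5), Motif 1 at 13.4% (12.2 to 14.7), CAGCTG at 27.4% (25.8 to 29.0) and CACGTG at 6.22% (5.37 to 7.16). The pairs with a shared summit were above these in each motif, with overlapping intervals for CACGTG, and a window at a pair takes in 2 promoters. Signals with and without a motif had overlapping intervals. Pairs with DRE had a median signal of 489 (433 to 528) and those without 469.5 (451 to 492). For Motif 1 the medians were 486 and 475.

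The remaining sequences went different ways. The hexamer TATAAA was at 52.2% (49.3 to 55.1) of pairs with a shared summit, 66.3% (62.3 to 70.2) of pairs without and 48.0% of all 5' ends. In pairs spaced up to 300 bp it was at 50.4% (47.2 to 53.6) with a shared summit and 57.0% (49.7 to 64.1) without, with overlapping intervals. In the 270 pairs with no summit near either TSS it was at 55.9% (49.8 to 61.9), which also overlaps the pairs with a shared summit. Beside this, the windows were richer in GC at pairs with a shared summit, 37.4% against 33.7% at pairs without, and all 5' ends had 40.9%. The part of base composition in the motif shares was not tested. GAGAGA, which the GAGA factor binds, was at 7.71% (6.26 to 9.37), 10.4% (8.0 to 13.1) and 14.3%, and the initiator letters TCAGT at 53.7%, 56.3% and 60.1%. CGATA was at 72.3% (69.6 to 74.8), 64.1% (60.0 to 68.0) and 54.1%, and in pairs spaced up to 300 bp at 71.8% (68.8 to 74.6) with a shared summit and 53.4% (46.1 to 60.6) without.

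**Figure D5:**
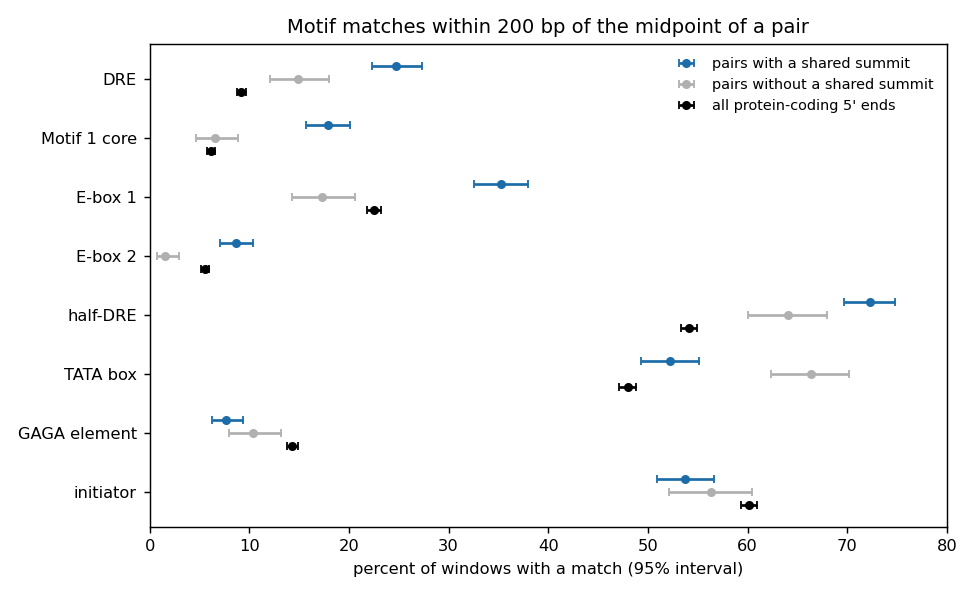
Percent of windows with a motif match on either strand, with 95% intervals: 1193 pairs with a shared summit (blue), 579 pairs without one (grey) and 13834 protein-coding 5' ends (black). E-box 1 is CAGCTG and E-box 2 is CACGTG; DRE, the Motif 1 core and both E-boxes are higher at pairs with a shared summit.

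Motif 1 also differed between the 2 genes of a pair. In the 852 pairs with 1 shared summit, the core read along the gene within its first 150 bases in 52 of the genes nearer to the summit (6.10%, 4.59 to 7.93) and in 25 of their partners (2.93%, 1.91 to 4.30). Against the direction of the gene it was found in 2 of the nearer genes and 1 partner. The summit lay downstream of the start of the core in 42 of the 52, a median 97.5 bp (59.0 to 125) past it. DRE in the same stretch showed no such contrast, at 27 nearer genes and 24 partners. Other searched sequences also differed, with overlapping intervals. All these intervals take nearer genes and partners as separate sets and leave out their pairing. CACGTG was in 46 nearer genes and 28 partners, and CAGCTG in 118 and 98. Against the direction of the gene CGATA was in 166 and 124 and TCAGT in 113 and 78. Along the gene these were in 130 and 129 and in 107 and 116. TATAAA was more frequent in partners, at 74 and 106 along the gene and 77 and 113 against it. The 6 sites with the highest signals are printed with 9 bases on each side, on the strand of the gene, in dm6 from RefSeq: Rcd5 at chr3L:4040552-4040578 (plus strand), COX5B at chr2L:6557803-6557829 (plus strand), ClC-c at chr3L:16090471-16090497 (plus strand), Nop56 at chr3R:22421041-22421067 (minus strand), Dyrk3 at chr4:1230691-1230717 (minus strand) and Rnb at chr3R:29799335-29799361 (minus strand). Capitals mark the core.
Rcd5: tgctggtgcGGTCACACTgctgagctg
COX5B: ctttaccgcGGTCACACTgatccatag
ClC-c: gcccggtctGGTCACACTgacggttcg
Nop56: gcttgctatGGTCACACTtgaagtaag
Dyrk3: ttttaacacGGTCACACTgttcttctc
Rnb: cttatgcacGGTCACACTctcaaagag

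At COX5B, a cytochrome c oxidase gene facing IFT52, the core began 12 bases into the gene and the summit lay 174 bases in, with a signal of 1252. At ClC-c, a gene of the chloride channel family, it began 26 bases in, with the summit at 119 bases and a signal of 1120. Nop56, a gene for small nucleolar RNA-guided rRNA modification, was the exception of the 6, with the core 10 bases in and the summit 4 bases upstream of the TSS. In the others the summit was 99 to 211 bases into the gene.

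The gene nearer to the single summit also differed from its partner in length and base composition, by small amounts. It was the longer of the 2 in 57.0% of the 852 pairs (53.6 to 60.4), with a median length of 2455 bp (2272 to 2616) against 2054 bp (1951 to 2196) in partners. Its first 200 bases had the higher GC content in 61.2% of pairs (57.8 to 64.4), with medians of 44.5% against 42.0%. Their part in the position of the summit was not tested.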

How the data were processed

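MESR4 ChIP-seq was measured in 2 samples of 1 group. Per the labels, chromatin was sonicated to 200 to 800 bp. The deposited signal is the authors' enrichment value per peak, on a scale set within each list, so signals were compared within the thresholded list and replicates by rank. The deposited −log10 q values were not used. Coordinates are dm6 as deposited, counted from 1. The aligner, peak caller, read depth and threshold on the irreproducible discovery rate, which compares peak ranks between replicates, are not given in the sources used here.

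Summits, genes (arms 2L, 2R, 3L, 3R, 4 and X, without the tandem histone cluster) and motifs were joined with Python 3.11.15, pandas 2.3.3 and scipy 1.17.1, with pairing tested on simulated data. With 1 group, and pairs chosen by the same lists, no test was made. Members and gene lists were chosen with earlier results of these data known. Pairs were named by a rule: the 20 highest signals, up to 3 further pairs for each of the 19 lists and up to 2 without a shared summit, the 5 with the highest weaker side among pairs with a summit inside each gene, and those at the edges. Pairs and genes named beyond it, such as the exceptions of the ribosomal protein list, several repair gene pairs, Gr58b/Gr58a, Gr59e/Gr59f and wmd/levy, were picked with their values known. A pair that involves an item not reported here was counted but not named. Alternatives changed the window, the TSS, the threshold, the replicates, neighbouring genes, spacing and merging of summits.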

Additional observations from a re-analysis of the deposited data

How the results depend on the processing

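Of 63 recomputed values of 6 results, 37 stayed within the 95% interval of the value reported. Some outcomes were fixed in advance. Merging summits within 150 bp could change nothing, as none were closer than 199 bp, and its values count among the 37. Median signals from the stronger 50% of the list, or from a replicate's list on its own scale, were bound to move. A 250 bp window lowered the share of pairs with a shared summit to 32.6%, the share with several to 11.1%, the share of single summits inside a gene to 58.4%, their offset to 12.5 bp and the median signal to 451; this window cannot hold a summit far inside a gene of a widely spaced pair. A 1000 bp window gave 85.1% with a shared summit, 48.1% with several and a signal of 504. The stronger 50% of the list gave 44.6%, 8.10% and 606. Spacing up to 250 bp gave 84.5% with a shared summit, and spacing up to 1000 bp 50.4%. A motif window of 100 bp on each side lowered DRE to 15.8%. The cause was not tested beyond what each setting itself changes. Among alternatives chosen after the data were seen, merging summits within 250 bp of a stronger one left 10.8% of pairs with several summits and put 81.4% of single summits inside a gene at a median of 85 bp, and spacing up to 300 bp gave 83.2% with a shared summit and 32.5% with several.

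With as many of the strongest summits of 1 replicate alone, the share of pairs with a shared summit was 66.5% to 71.7%, the share with several 25.8% to 33.2%, the share of single summits inside a gene 81.2% to 85.5%, their offset 76 to 95 bp and the signal 157 to 327, each on that list's own scale. No analysis with paired samples was possible because there is 1 group. The depth of the samples is unknown, pairs that share genes or positions are not independent, and a pair below the threshold is not shown to lack MESR4.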
